A study of Mus musculus with 30 samples.

Results

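Brain tumors that arose in the hippocampus were compared with brain tumors that arose in the cortex. Both arose after an injection into mice, with Cre recombinase under the GFAP promoter. All 7 GFAP hippocampus tumors and all 4 GFAP cortex tumors were taken by their titles, 11 of the 30 arrays in the series. A second comparison set hippocampus tumors 1 to 4 against cortex tumors 2 to 4 (7 arrays), because hippocampus tumors 5 to 7 and cortex tumor 1 stood apart in the distribution of their signal. The other arrays used were 4 of normal hippocampus and 4 of normal cortex. The remaining 11 arrays held GFAP tumors of the subventricular zone, NES tumors of the hippocampus and SYN1 tumors of the cortex, and served only to estimate the spread between arrays. Strain, age, time after injection and the cassette that Cre acts on are not given in the sources used here. Whether each array had an animal of its own is not stated, and the p-values therefore describe the spread among arrays, part of which may be technical.

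GFAP encodes the intermediate filament of astrocytes, and its promoter is also active in the stem cells that persist in the adult brain. The hippocampus and the cortex share a common origin in the dorsal forebrain but keep distinct sets of transcription factors and surface proteins in their neurons, such as Prox1 in dentate granule cells and Tbr1 in cortical projection neurons. Glioblastomas are high-grade astrocytic tumors that infiltrate this tissue, recruit new vessels and build a matrix of their own, so a piece of tumor holds tumor cells, vessels, macrophages and remaining neurons in varying shares. In such bulk samples, fewer cells of a type and less RNA per cell cannot be told apart.

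The deposited log2 signals of single-channel Affymetrix gene arrays covered 19938 named genes. Median gene signal ran from 7.43 to 7.92 in the hippocampus tumors and from 7.42 to 7.87 in the cortex tumors. The interquartile range over genes was 1.88 in cortex tumor 1 against 2.74 to 2.81 in cortex tumors 2 to 4, and 2.18 to 2.40 in hippocampus tumors 5 to 7 against 2.63 to 3.03 in hippocampus tumors 1 to 4, and the lowest correlation between any hippocampus and any cortex tumor was 0.779, between hippocampus tumor 5 and cortex tumor 1. Gfap itself had log2 signals from 9.93 to 12.71 (median 11.56) in the hippocampus tumors, and 6.89, 11.16, 11.93 and 10.75 in cortex tumors 1 to 4, with 9.95 to 10.41 in normal hippocampus and 8.80 to 9.59 in normal cortex. Cortex tumor 1 was thus below both normal tissues in the gene that names its promoter, and the other 10 tumors overlapped between regions.

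With all 11 arrays, 534 genes (2.68%) differed at an adjusted p under 0.05 in the limma fit with Benjamini-Hochberg adjustment. Of these, 446 (2.24%) were higher and 88 (0.441%) lower in hippocampus tumors. When equal-numbered hippocampus and cortex tumors were treated as pairs, which dropped hippocampus tumors 5 to 7, limma called 0 genes (4164 at an unadjusted p under 0.05, lowest adjusted p = 0.125). Pairing with the spread pooled over all 30 arrays, an alternative chosen after seeing the data, called 2416. A fit to the 11 arrays alone also called 0 (1603 at an unadjusted p under 0.05), so the calls rest on the spread shared by all 7 groups of the series. That spread includes the normal arrays, whose mean correlation with their own group was 0.9924 to 0.9952, against 0.8679 to 0.9485 in the 11 tumors. Each SE given below is from this shared spread and can be too small for genes that vary more in these tumors. In the second comparison 2090 genes (10.5%) differed, 1692 higher (8.49%) and 398 lower (2.0%). That count fell to 9 without cortex tumor 2 and to 391 without hippocampus tumor 1, and was 0 in a fit to the 7 arrays alone (4698 at an unadjusted p under 0.05). The groups did not overlap for 326 genes (1.64%; 1.23% higher and 0.401% lower) with all arrays, and for 4373 (21.9%; 17.3% higher and 4.62% lower) in the second comparison. The comparisons share 7 arrays; 267 genes were called higher in both, 37 lower in both and 0 in opposite directions.

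The sequences below belong to genes that were lower or higher in hippocampus tumors in both comparisons, and are shown as an example of a reduced neuronal gene and of a raised endothelial gene. Neurod2, a bHLH transcription factor of excitatory forebrain neurons, was lower, and Esm1, a proteoglycan secreted by the leading endothelial cells of growing vessels, was higher. The 250 bases before the gene start are from RefSeq (GRCm38.p6), with capitals for the E-box CAGATG, or CATCTG on the other strand, which NEUROD factors are known to bind.
Neurod2 (chr11:98329646-98329895, minus strand): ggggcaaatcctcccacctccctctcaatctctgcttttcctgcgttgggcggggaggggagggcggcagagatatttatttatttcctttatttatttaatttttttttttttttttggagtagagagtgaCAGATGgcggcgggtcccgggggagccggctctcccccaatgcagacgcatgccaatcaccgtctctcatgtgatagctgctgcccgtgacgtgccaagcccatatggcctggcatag
Esm1 (chr13:113209409-113209658, plus strand): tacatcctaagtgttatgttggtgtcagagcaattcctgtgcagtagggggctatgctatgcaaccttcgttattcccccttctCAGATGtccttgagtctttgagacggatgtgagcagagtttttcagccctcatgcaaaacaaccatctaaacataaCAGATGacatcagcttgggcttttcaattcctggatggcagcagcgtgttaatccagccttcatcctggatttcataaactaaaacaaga
The Neurod2 window held 1 match, 118 bases before the start, and the Esm1 window 2, at 90 and 166 bases. The motif was in 14.5% of 27025 gene windows of this length, in 2 of the 9 windows found for the most reduced genes of the second comparison and in 2 of the 9 found for the most raised. A match of these letters is a description of the sequence only.

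The miRNA genes with mature sequences printed here were lower in hippocampus tumors 1 to 4 than in cortex tumors 2 to 4, and were chosen after their values were seen. Capitals mark the seed, bases 2 to 8, and the sequences are from RefSeq (GRCm38.p6).
miR-138-5p (Mir138-2, chr8:94324312-94324334, plus strand): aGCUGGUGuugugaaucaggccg
miR-128-3p (Mir128-1, chr1:128202404-128202424, plus strand): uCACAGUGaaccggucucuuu
miR-9-5p (Mir9-1, chr3:88215613-88215635, plus strand): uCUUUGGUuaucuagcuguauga
The 3 seeds differ from each other. These miRNAs are abundant in brain: miR-138 is known to act on dendritic spines, miR-128 is enriched in neurons and miR-9 in neural progenitors and neurons. The array probe sets lie in the genes and do not measure the mature RNA.

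Normal hippocampus and normal cortex differed in 257 genes (1.29%), of which 112 (0.562%) were higher and 145 (0.727%) lower in hippocampus. With all arrays the share of these genes called between the tumors was near the 2.68% of all genes, and is not a result about them. Of all genes, 2.24% were called higher and 0.441% lower there. Both sets had a negative median difference between the tumors. Of the 112 genes higher in normal hippocampus, 0 were called higher in the 7 hippocampus tumors against the 4 cortex tumors and 3 were called lower, with a median log2 difference of -0.23 between tumors against 1.19 between normal tissues. Hippocampus tumors lay at a median of -1.46 from normal hippocampus over these genes, and cortex tumors at -0.01 from normal cortex. Of the 145 genes lower in normal hippocampus, 1 was called higher and 3 lower in hippocampus tumors (median -0.14, against -1.09 between normal tissues). The sign between tumors was that between normal tissues for 22 of the 112 genes and for 111 of the 145. Both sets thus leaned lower in hippocampus tumors, whichever way they differed between normal tissues. Over the 145 genes, the medians from the normal tissue of the same region were -0.28 in hippocampus tumors and -1.18 in cortex tumors. Both sets were chosen by the difference between the same normal arrays. The medians from normal tissue therefore follow in part from that choice, and no conclusion is drawn from them. In hippocampus tumors 1 to 4 against cortex tumors 2 to 4, the counts were 1 higher and 8 lower of the 112, and 2 higher and 9 lower of the 145. Of all genes, 8.49% were higher and 2.0% lower in that comparison. The sign was that of the normal tissues in 29 and 110 genes.

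The list of 20 hippocampus region genes covered genes known for this region. Of the 20, 13 were higher in normal hippocampus than in normal cortex. In hippocampus tumors 0 were called higher, beside 2.24% of all genes with all arrays and 8.49% in the second comparison. With all arrays 0 of 20 is near the share of all genes and is not a result about the list. Neurod6 and Nr3c2 were called lower in the second comparison, beside 2.0% of all genes. Lct, lactase, a marker of the mouse dentate gyrus, had log2 signals of 6.10 to 6.55 (median 6.28) in the hippocampus tumors, and 6.75, 6.45, 7.25 and 6.45 in the cortex tumors. In normal tissue it had 8.91 to 9.26 in hippocampus and 6.82 to 6.96 in cortex. Both tumor groups therefore lay at or near the level of normal cortex, with no hippocampus tumor at the level of its own tissue. Prox1, a homeobox factor of dentate granule cells, had 7.01 to 8.15 (median 7.21) in hippocampus tumors and 6.46, 7.25, 8.56 and 7.26 in cortex tumors, against 9.84 to 10.24 in normal hippocampus and 7.80 to 7.99 in normal cortex. The tumor ranges overlapped throughout. Fibcd1, an acetyl-group receptor marking CA1 neurons, had 6.40 to 7.44 (median 6.81) in hippocampus tumors and 7.13, 7.10, 7.43 and 6.90 in cortex tumors, against 9.13 to 9.43 and 7.16 to 7.51 in the normal tissues of the same regions. The limma interaction tests the region difference in tumors against that in normal tissue. It was negative and passed for 12 of the 20 genes with 30 arrays, beside 99 of 19938 genes (0.497%). With 26 arrays the count was also 12. The list was chosen for genes known in hippocampus, and the test subtracts the difference between the normal tissues. Both counts therefore follow in part from that choice, and no conclusion is drawn from them. With 26 arrays the interaction passed for 537 genes (2.69%), 347 positive (1.74%) and 190 negative (0.953%). The balance turned after quantile normalization, to 178 positive and 291 negative. With 30 arrays the interaction passed for 167 genes (0.838%), 68 positive (0.341%) and 99 negative.

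**Figure D1:**
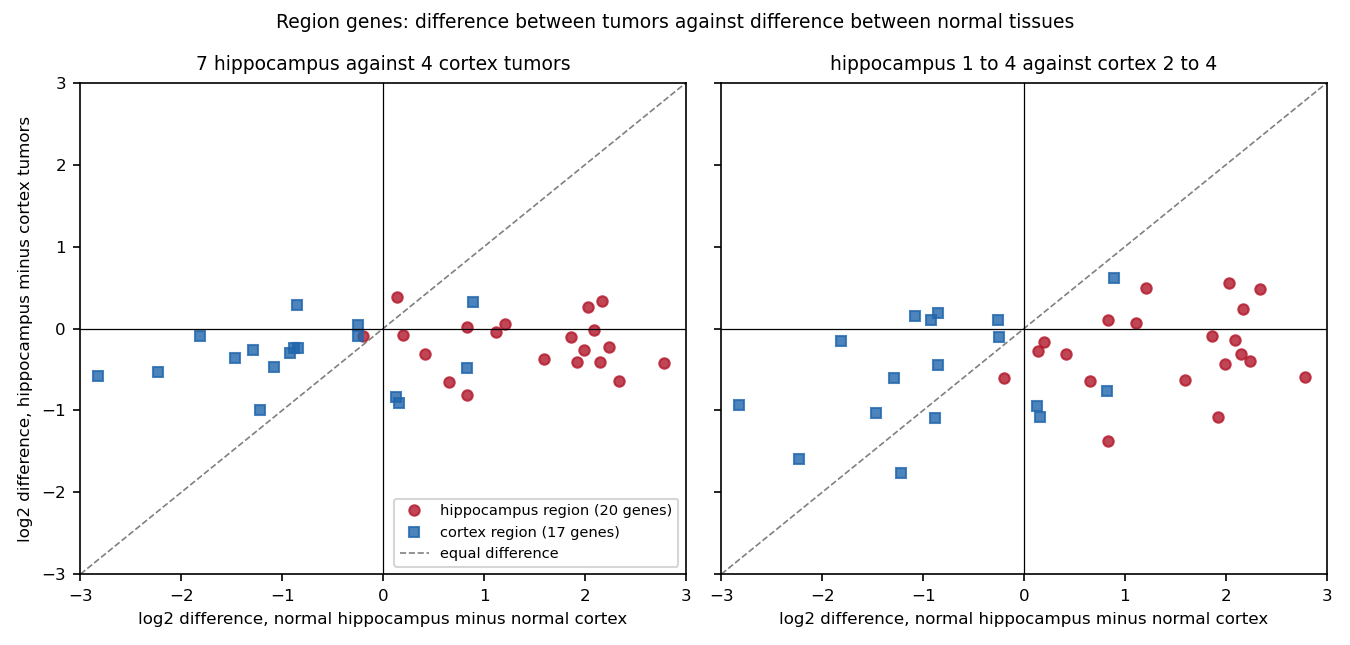
Log2 difference of hippocampus minus cortex tumors (vertical axis) against that of normal hippocampus minus normal cortex (horizontal axis) for 20 hippocampus region and 17 cortex region genes, with 7 against 4 tumors on the left and hippocampus tumors 1 to 4 against cortex tumors 2 to 4 on the right; the dashed line marks equal differences. Of the hippocampus region genes 13 are called higher in normal hippocampus. None is called higher in hippocampus tumors, beside 2.24% of all genes on the left and 8.49% on the right. In the right panel 12 of 17 cortex region genes lie below zero vertically.

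Cortex region genes were not called in the 7 against 4 comparison (0 of 17, median log2 difference -0.29), beside 2.68% of all genes. In hippocampus tumors 1 to 4 against cortex tumors 2 to 4, 7 of the 17 were lower and 0 higher (median -0.61, against 0.10 over all genes). Of all genes, 2.0% were lower and 8.49% higher there, and 1.90% were lower after quantile normalization. The 7 were Tbr1, Fezf2, Cux2, Mef2c, Lamp5, Dkkl1 and Rgs14, and after quantile normalization 5 of the 17 were lower. The list was only partly borne out by the normal arrays: 3 of the 17 were called lower in normal hippocampus. Of the 7, Cux2 and Dkkl1 were among those 3. Fezf2 and Rgs14 had positive normal hippocampus minus cortex differences (0.16 and 0.83) that did not pass. Rgs14 had 8.85 to 9.13 in normal hippocampus and 8.04 to 8.24 in normal cortex, without overlap. The normal arrays thus do not bear Rgs14 out as a cortex region gene. Fezf2 directs subcerebral projection neurons and Cux2 marks the upper layers. Tbr1, a T-box factor of deep-layer neurons, had log2 signals of 6.20, 6.92, 7.81 and 6.95 in hippocampus tumors 1 to 4, and 9.37, 8.53 and 8.31 in cortex tumors 2 to 4 (difference -1.77 ± 0.40 SE, adjusted p = 0.0157). These groups did not overlap. The arrays left out lay the other way round, with 8.97 in hippocampus tumor 5 and 6.33 in cortex tumor 1.

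The largest reductions in hippocampus tumors 1 to 4 against cortex tumors 2 to 4 included genes of glutamate and GABA receptors. The 12 named by size were Ddn, Hpcal4, Grin2b, Slc17a7, Lmo3, Gria2, Gabra5, Cpne6, Trank1, Tbr1, Rasgef1a and Gabra2, with log2 differences from -2.59 to -1.73 and adjusted p from 0.0149 to 0.0453. Grin2b and Gria2 encode glutamate receptor subunits, Gabra5 and Gabra2 subunits of the GABA-A receptor, and Slc17a7 the vesicular glutamate transporter of cortical and hippocampal neurons. Ddn (dendrin, a protein of dendritic spines) had log2 signals of 6.42, 7.73, 9.13 and 8.11 in hippocampus tumors 1 to 4, and 11.16, 10.48 and 9.69 in cortex tumors 2 to 4 (difference -2.59 ± 0.57, adjusted p = 0.0149), a 6.04-fold lower signal. No hippocampus tumor of these 4 reached the lowest of the 3 cortex tumors. Hippocampus tumor 5, at 10.17, lay among the cortex tumors, and cortex tumor 1, at 6.67, among the hippocampus tumors. Grin2b had 7.02, 8.54, 8.81 and 8.02 in hippocampus tumors 1 to 4 and 10.55, 10.21 and 9.34 in cortex tumors 2 to 4, again without overlap (-1.94 ± 0.47, adjusted p = 0.0198). Hippocampus tumor 5 had 9.91 and cortex tumor 1 had 6.21.

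Over the neuron list, 6 of 27 genes were lower and 0 higher in this comparison (median -0.77), beside 2.0% of all genes lower and 8.49% higher. The 6 were Slc17a7, Neurod1, Neurod2, Rbfox3, Grin2a and Grin2b. Rbfox3 is the nuclear protein NeuN, and Neurod1 is a close relative of Neurod2. The mean log2 signal of the list was 8.53, 9.67, 9.44 and 9.05 in hippocampus tumors 1 to 4, and 10.44, 9.90 and 9.52 in cortex tumors 2 to 4. Hippocampus tumors 5 to 7 had 10.01, 8.91 and 8.59, and cortex tumor 1 had 7.53. The spread within a region was therefore wider than the gap between regions once all 11 tumors were counted. With all of them 1 of 27 neuron genes was called, beside 2.68% of all genes. This exception was Neurod2, at 7.63 to 8.99 (median 8.09) in the 7 hippocampus tumors and 8.12, 9.43, 9.69 and 9.19 in the 4 cortex tumors (-0.93 ± 0.24, adjusted p = 0.0360; quantile normalized, adjusted p = 0.0444). Without any 1 of hippocampus tumors 1, 6 and 7 or cortex tumors 2, 3 and 4 its call was lost. Of the 398 genes lower in the second comparison, cortex tumor 1 was below every cortex tumor 2 to 4 in 355 and below the mean of hippocampus tumors 1 to 4 in 288, and hippocampus tumor 5 was above every hippocampus tumor 1 to 4 in 265. The mean of the neuron list moves with these values, and its part in the other differences was not tested.

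The miRNA genes behind the printed sequences followed the same arrays. Mir138-2 had log2 signals of 6.81 to 7.93 (median 7.0) in the 7 hippocampus tumors, and 7.04, 8.52, 8.63 and 8.10 in cortex tumors 1 to 4 (-0.95 ± 0.23, adjusted p = 0.0268). Only cortex tumor 1 overlapped the hippocampus tumors. Mir138-1, another gene that gives miR-138-5p, had 6.90 to 7.51 in hippocampus tumors and 7.44 to 7.66 in cortex tumors. It passed in neither comparison (adjusted p = 0.172 with all arrays and 0.399 in the second). Mir128-1 had 6.84, 6.85, 7.44 and 6.46 in hippocampus tumors 1 to 4 and 8.33, 7.85 and 7.92 in cortex tumors 2 to 4 (adjusted p = 0.0130), with 6.32 in cortex tumor 1. Mir9-1 had 6.60, 6.47, 7.21 and 6.62 in hippocampus tumors 1 to 4 and 7.70, 7.30 and 7.66 in cortex tumors 2 to 4 (adjusted p = 0.0183), with 6.62 in cortex tumor 1. Of 300 miRNA genes, 15 were lower and 17 higher in this comparison, beside 2.0% and 8.49% of all genes. After quantile normalization 15 were lower and 0 higher, and the 17 higher had a low median signal of 4.76.

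When all 11 arrays were used, 88 genes were lower in the hippocampus tumors, of which 37 were also lower in the second comparison. The 12 named by size were Abi3bp, Ctsk, Lgals7, Sfrp1, Sod3, Thbs4, Atp2a1, Adamts5, Slit3, Wipf3, Cxcl14 and Zfp831, with log2 differences from -1.73 to -1.0. Ctsk, Sfrp1, Thbs4, Wipf3 and Zfp831 were also called lower in the second comparison. Sfrp1, a secreted antagonist of Wnt ligands, had log2 signals of 6.74 to 8.20 (median 7.67) in hippocampus tumors, and 9.34, 8.80, 9.14 and 8.44 in cortex tumors 1 to 4 (-1.39 ± 0.24, adjusted p = 0.00549), 2.62-fold lower. Every hippocampus tumor was below every cortex tumor, and the gene was called with each of the 11 arrays left out in turn (adjusted p 0.00272 to 0.0194). Sfrp1 was also lower in normal hippocampus than in normal cortex (7.68 to 8.01 against 8.77 to 9.06, adjusted p = 0.0245), so tumors and normal tissues differed in the same direction. Of the 88 genes lower in hippocampus tumors, Sfrp1, Cwh43 and Krt80 were those also lower in normal hippocampus; the last 2 were named after their values were seen. Wipf3, an actin regulator that binds WASP proteins, ran the other way: it had 7.56 to 8.50 (median 7.80) in hippocampus tumors and 7.97, 9.41, 9.70 and 8.55 in cortex tumors (-1.01 ± 0.25, adjusted p = 0.0302), but was higher in normal hippocampus (adjusted p = 0.0200). That reversal passed the interaction test (adjusted p = 0.00177).

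Sod3, the extracellular superoxide dismutase, had 6.40 to 7.49 (median 6.93) in hippocampus tumors and 8.89, 7.67, 8.81 and 7.58 in cortex tumors (-1.26 ± 0.24, adjusted p = 0.00756), without overlap. Ctsk, the collagen-degrading protease cathepsin K, was flat at 6.95 to 7.33 in the hippocampus tumors and spread over 11.29, 7.17, 8.68 and 8.13 in the cortex tumors (-1.63 ± 0.39, adjusted p = 0.0247). Its SD was 1.76 among the cortex tumors and 0.145 among the hippocampus tumors, so the SE from the shared spread understates the spread of the cortex tumors. Abi3bp, a matrix-binding protein, had 5.82 to 7.02 in hippocampus tumors and 9.29, 9.07, 6.73 and 7.31 in cortex tumors (-1.73 ± 0.35, adjusted p = 0.0125). Cortex tumor 1 was the highest of the 11 for both, and in each case 1 cortex tumor, tumor 2 for Ctsk and tumor 3 for Abi3bp, lay within the range of the hippocampus tumors. Ctsk lost its call without cortex tumor 3 and Abi3bp without cortex tumor 2. Adamts5, an aggrecan-cleaving protease, Slit3, an axon guidance ligand, and Cxcl14, a chemokine, were each about 2-fold lower with all arrays. Their differences were -1.09 ± 0.26, -1.08 ± 0.29 and -1.0 ± 0.24 (adjusted p = 0.0249, 0.0452 and 0.0241). None of them passed in the second comparison (-0.67, -0.55 and -0.61). Slit3 kept its call in 4 of 11 fits with 1 array left out, and lost it after quantile normalization (adjusted p = 0.0715). The wider extracellular matrix list did not move with them: 0 of 20 genes were called with all arrays (median -0.06), beside 2.68% of all genes. Sparc, a collagen-binding glycoprotein, was the single gene called in the second comparison, where it was higher (0.72 ± 0.21, adjusted p = 0.0351), as were 8.49% of all genes.

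Skeletal muscle genes were also among the reduced genes. Of 8 muscle genes, Myh4 (fast myosin heavy chain) and Ckm (muscle creatine kinase) were lower with all arrays, beside 0.441% of all genes. Atp2a1, the calcium pump of fast muscle, was among the named genes. Atp2a1 had 6.66 to 7.13 (median 6.80) in hippocampus tumors and 9.08, 6.81, 6.89 and 9.23 in cortex tumors 1 to 4. Cortex tumors 1 and 4 stood above all others, and cortex tumors 2 and 3 lay within the hippocampus range. The mean level of the 8 genes was 6.66 to 7.18 in the hippocampus tumors, and 8.44, 7.04, 6.84 and 8.30 in cortex tumors 1 to 4, against 7.07 to 7.29 in the 8 normal arrays. Myh4 lost its call without cortex tumor 4. The 14 mural cell and fibroblast genes were also highest in cortex tumor 1, with a mean level of 10.41 against 8.37 to 9.31 in hippocampus tumors and 8.22 to 9.33 in the other cortex tumors. Of the 14, 0 were called in either comparison, beside 2.68% and 10.5% of all genes. Neither muscle nor fibroblast RNA was tested for its part in the differences above.

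**Figure D2:**
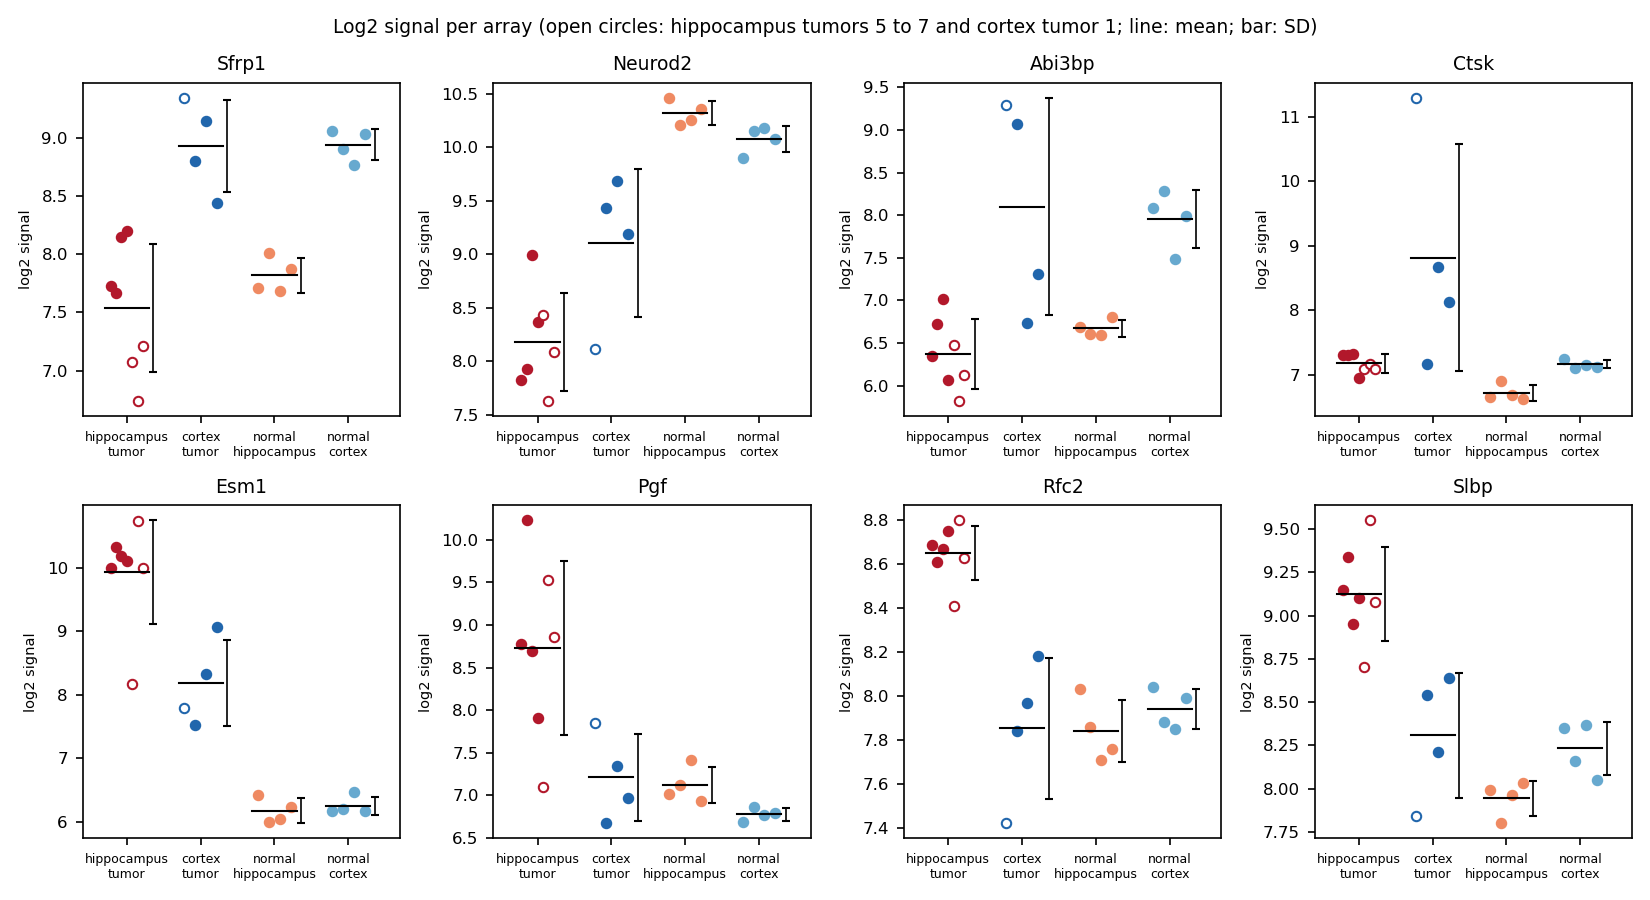
Log2 signal (vertical axes, each to its own range) of 8 genes in each array of hippocampus tumors, cortex tumors, normal hippocampus and normal cortex; lines are means and bars SDs, and open circles mark hippocampus tumors 5 to 7 and cortex tumor 1. Sfrp1, Rfc2 and Slbp separate hippocampus from cortex tumors without overlap, while for Ctsk and for Abi3bp 1 cortex tumor lies within the range of the hippocampus tumors.

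Esm1 and Pgf, genes linked to vessel growth, were among the largest increases in both comparisons. Esm1 had log2 signals of 8.17 to 10.73 (median 10.10) in the 7 hippocampus tumors and 7.80, 7.53, 8.33 and 9.07 in the 4 cortex tumors, 3.36-fold higher (1.75 ± 0.49, adjusted p = 0.0495). In normal tissue it was 6.0 to 6.43 in hippocampus and 6.17 to 6.47 in cortex. Hippocampus tumor 5 was the single one that overlapped the cortex tumors. Pgf, a growth factor of the VEGF family, had 7.09 to 10.23 (median 8.78) in hippocampus tumors and 7.85, 6.67, 7.34 and 6.97 in cortex tumors (1.52 ± 0.39, adjusted p = 0.0331), and 3.76-fold more in hippocampus tumors 1 to 4 than in cortex tumors 2 to 4 (adjusted p = 0.0130). Neither passed with all 11 arrays after quantile normalization (adjusted p = 0.0634 for Esm1 and 0.0665 for Pgf), and leaving out single arrays took away the call of Esm1 in 9 of 11 cases and of Pgf in 5.

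In the second comparison 6 of 14 endothelial genes were higher and 0 lower (median 0.66, against 0.10 over all genes), and 4 were higher after quantile normalization. The shares of all genes called higher were 8.49% and 1.96%. Cdh5, the cadherin of endothelial junctions, had 9.80, 9.80, 9.95 and 9.95 in hippocampus tumors 1 to 4, and 8.69, 8.89 and 9.08 in cortex tumors 2 to 4 (0.99 ± 0.18, adjusted p = 0.0116). The groups were apart, but hippocampus tumors 5 to 7 had 7.71, 8.29 and 8.14, and cortex tumor 1 was above all of the others. Kdr, the main VEGF receptor, Tie1, an orphan receptor of endothelium, Pecam1, a junction adhesion molecule, and the sialomucin Emcn rose with it, by 0.83, 0.68, 0.65 and 0.72. Each had a like pattern, with cortex tumor 1 at or above the level of the other 3 cortex tumors. Angptl4, a secreted lipase inhibitor induced by low oxygen, rose by 1.64 ± 0.46 (adjusted p = 0.0304), and Cd93, a lectin of angiogenic endothelium, by 1.57 ± 0.44 (adjusted p = 0.0312). Vegfa did not pass in this comparison (0.79 ± 0.29, adjusted p = 0.0752). With all 11 arrays 1 of the 14 endothelial genes, Esm1, was called, beside 2.68% of all genes.

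The other genes with the largest increase in the second comparison were Xist, Fgf7, Pkp1, Pdlim1, Pf4, Prl3d3, Aif1l and Olfr1051. Fgf7, a fibroblast growth factor that acts on epithelia, had 9.56, 9.65, 9.71 and 7.17 in hippocampus tumors 1 to 4 and 6.36, 6.84 and 6.78 in cortex tumors 2 to 4 (2.36 ± 0.72, adjusted p = 0.0413). Hippocampus tumor 4 was the lowest of the 4 and still above the cortex tumors, and cortex tumor 1 had 8.35. Pf4, a chemokine of platelets and some macrophages, had 9.18, 9.43, 9.56 and 9.08 in hippocampus tumors 1 to 4 and 7.07, 7.63 and 8.14 in cortex tumors 2 to 4 (1.70 ± 0.46, adjusted p = 0.0267). The hippocampus tumors were close together, at 9.08 to 9.61 in all 7, and cortex tumor 1 was higher than any of them, at 10.39. Pkp1 is a desmosome protein, and Pdlim1 and Aif1l are actin-linked proteins. Slc40a1, the iron exporter ferroportin, was higher with all arrays, at 8.28 to 10.76 (median 9.50) in hippocampus tumors and 8.37, 7.11, 7.96 and 7.73 in cortex tumors (1.59 ± 0.36, adjusted p = 0.0189). Its call was lost without cortex tumor 2.

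Some cell cycle genes were higher in hippocampus tumors 1 to 4 than in cortex tumors 2 to 4. Of 24 genes, 9 were higher and 0 lower (median 0.80), and 3 were higher after quantile normalization. Of all genes, 8.49% were higher in this comparison, and 1.96% after quantile normalization. The 9 were Mki67, the proliferation marker Ki-67, the mitotic genes Cdk1, Ccnb2, Plk1, Birc5 and Foxm1, and the S phase genes Mcm2, Rrm2 and E2f1. Rrm2, a ribonucleotide reductase subunit, had 10.16, 10.09, 10.01 and 10.25 in hippocampus tumors 1 to 4 and 8.51, 9.42 and 9.06 in cortex tumors 2 to 4 (1.13 ± 0.27, adjusted p = 0.0189). Hippocampus tumors 5 to 7 were lower and more variable, at 8.09, 9.67 and 9.27, and cortex tumor 1 had 8.30. The mean level of the 24 genes was 9.38 to 9.77 in hippocampus tumors 1 to 4 and 7.50, 8.59 and 8.39 in hippocampus tumors 5 to 7, with 8.43, 8.25, 8.99 and 8.85 in cortex tumors 1 to 4. With all arrays 0 of the 24 were called, beside 2.68% of all genes.

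**Figure D3:**
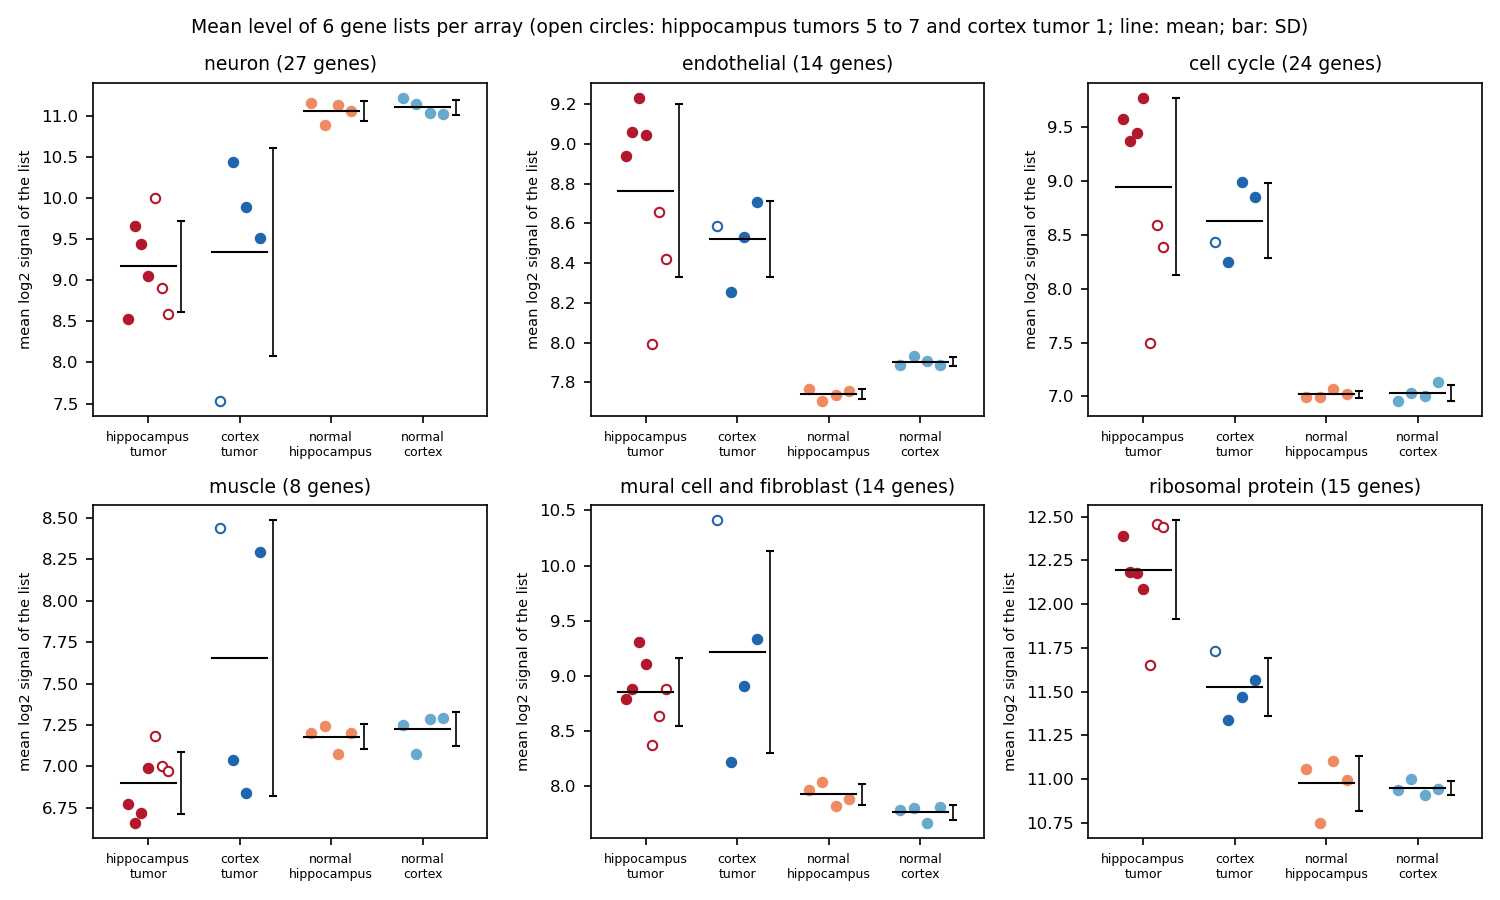
Mean log2 signal of 6 gene lists (vertical axes, each to its own range) in each array of hippocampus tumors, cortex tumors, normal hippocampus and normal cortex; lines are means and bars SDs, and open circles mark hippocampus tumors 5 to 7 and cortex tumor 1. Neuron genes are lowest in cortex tumor 1 (7.53), muscle genes are high in cortex tumors 1 and 4 (8.44 and 8.30), and cell cycle genes are highest in hippocampus tumors 1 to 4 (9.38 to 9.77).

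Many of the genes called higher were either very bright or very dim. In the 7 against 4 comparison, 210 of the 446 lay in the fifth of genes with the highest mean signal and 121 in the fifth with the lowest. In the second comparison these counts were 605 and 678 of 1692. After quantile normalization, which gives all arrays the same distribution, 85 genes were higher (0.426%) and 56 lower (0.281%) with all arrays, 0.707% in all. In the second comparison 391 were higher (1.96%) and 378 lower (1.90%), 3.86% in all. The share of calls that were higher thus moved with the scaling: with all arrays it was 83.5% as deposited, 60.3% quantile normalized and 94.9% with each array centred on its median, and in the second comparison it was 81% as deposited and 50.8% quantile normalized. The median difference over all genes in the second comparison was 0.10 as deposited, 0.02 quantile normalized and 0.16 centred. Of the 446 and 88 genes called as deposited, 47 higher and 25 lower were also called after quantile normalization.

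Among the genes of high signal were some of protein synthesis and energy metabolism. Of all genes, 2.24% were called higher with all arrays and 8.49% in the second comparison, and 0.426% and 1.96% after quantile normalization. Of 15 ribosomal protein genes, 9 were higher with all arrays and 15 in the second comparison, and 0 and 3 after quantile normalization. Rpl4, a protein of the large ribosomal subunit, had 11.52 to 12.09 (median 11.69) in hippocampus tumors and 11.09, 10.97, 10.80 and 10.99 in cortex tumors (0.84 ± 0.14, adjusted p = 0.00549; quantile normalized, 0.0816). The groups did not overlap. Ribosomal protein genes have many processed copies, so the signal of a probe set can come from several loci. Of 17 hypoxia and glycolysis genes, the glycolytic enzymes Pgk1, Ldha and Aldoa were higher in both comparisons and none of the 17 after quantile normalization. Pgk1 had 12.49 to 13.78 (median 12.89) in hippocampus tumors and 12.07, 11.43, 11.65 and 12.13 in cortex tumors (1.13 ± 0.20, adjusted p = 0.00549; quantile normalized, 0.111). Of 19 oxidative phosphorylation genes, 6 were higher with all arrays and 4 in the second comparison, and 0 after quantile normalization. Tmsb10, an actin-binding peptide, Atp5mpl, a small subunit of ATP synthase, and Cnbp, a nucleic acid binding protein, were among the 12 largest increases with all arrays, at 1.46 ± 0.30, 1.49 ± 0.35 and 1.31 ± 0.25. For all 3, hippocampus tumors 5 to 7 were above hippocampus tumors 1 to 4 (Tmsb10 12.52 to 12.96 against 10.80 to 11.34).

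Genes of low signal included some of the olfactory receptor family, which encode the odorant receptors of the nose. Of 1027, 26 were higher and 0 lower with all arrays, a share near the 2.24% of all genes called higher. The second comparison had 359 higher and 0 lower, beside 8.49% of all genes called higher. After quantile normalization 1 was higher with all arrays and 29 in the second comparison, beside 0.426% and 1.96% of all genes. Olfr1116, an olfactory receptor gene and one of the 12 largest increases, had 4.64 to 6.32 in hippocampus tumors and 4.61, 3.43, 3.83 and 4.14 in cortex tumors. Olfr806, Olfr1051, Rnu6, Mir463 and Mir297-1, the other dim genes among the 12, had means of 3.10 to 5.23 in hippocampus tumors. No gene of these passed with all arrays after quantile normalization.

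**Figure D4:**
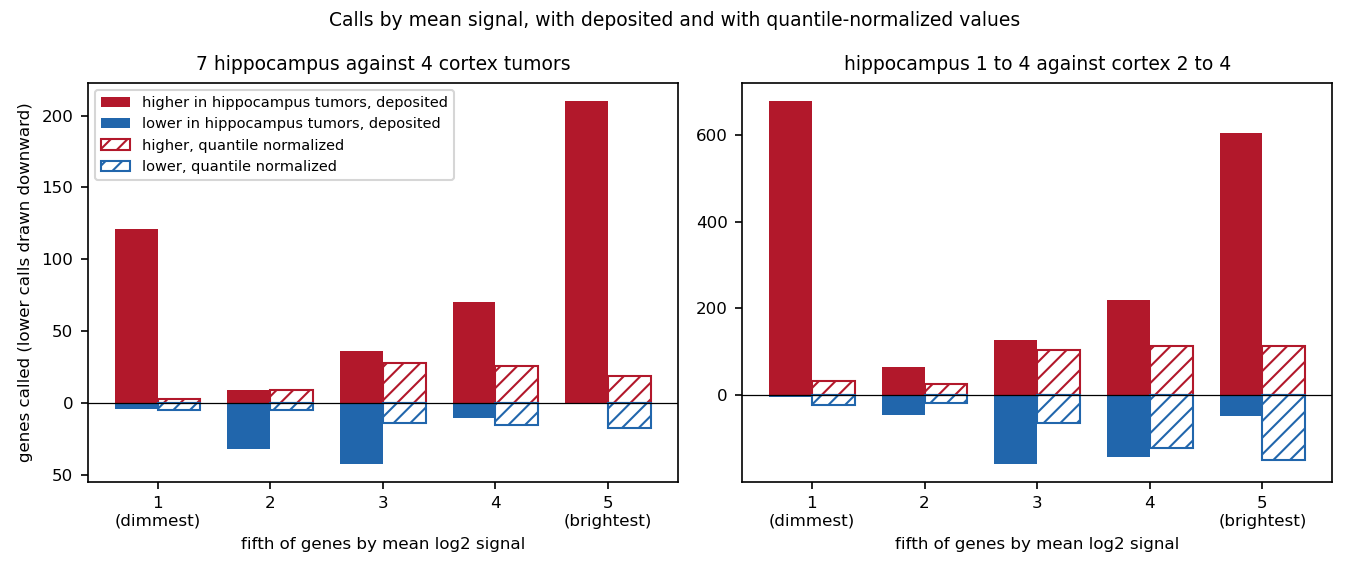
Number of genes called (vertical axis, genes lower in hippocampus tumors drawn downward) in 5 equal groups of genes by mean log2 signal (horizontal axis), with 7 against 4 tumors on the left and hippocampus tumors 1 to 4 against cortex tumors 2 to 4 on the right. Filled bars are deposited values and hatched bars quantile-normalized values; higher calls in the dimmest group fall to 3 with all arrays and 33 in the second comparison once quantile normalized.

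Genes called in both comparisons and with both scalings numbered 35, of which 21 were higher and 14 lower in hippocampus tumors. The 31 with an established name were collected after their values were seen. Rfc2, a subunit of the clamp loader that places PCNA on DNA, had log2 signals of 8.41 to 8.80 (median 8.67) in hippocampus tumors and 7.42, 7.84, 7.97 and 8.18 in cortex tumors (0.80 ± 0.13, adjusted p = 0.00549; quantile normalized, adjusted p = 0.000890). Slbp, which binds the stem-loop of histone mRNA in S phase, had 8.70 to 9.55 (median 9.10) in hippocampus tumors and 7.84, 8.54, 8.21 and 8.64 in cortex tumors (0.81 ± 0.17, adjusted p = 0.0162). For both, all 7 hippocampus tumors were above all 4 cortex tumors. Tcp1, a subunit of the chaperonin that folds actin and tubulin, had 11.29 to 12.16 and Eif3m, a translation initiation factor subunit, 9.43 to 10.47 in hippocampus tumors, against 10.44 to 10.95 and 8.35 to 9.12 in cortex tumors. C1galt1c1, the chaperone Cosmc for O-glycan synthesis, was higher by 1.14 ± 0.20, Sptssa, a subunit of serine palmitoyltransferase, by 1.12 ± 0.22, and Dbr1, the enzyme that opens intron lariats, by 0.80 ± 0.13.

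The rest of the 21 higher genes were Smu1, Rbx1, Cwc15, Rnps1, Psmc3, Naa35, Leo1, Smg8, Mrps7, Mrps30, Otud1, Maged2, Olfr826 and Clec14a, at 0.46 to 0.91 with all arrays. Smu1, Cwc15 and Rnps1 act in mRNA splicing, Rbx1 and Psmc3 in protein degradation, and Mrps7 and Mrps30 in the mitochondrial ribosome. Clec14a, a lectin of tumor endothelium, had 6.78 to 7.25 in hippocampus tumors and 6.69, 6.32, 6.53 and 6.50 in cortex tumors (0.49 ± 0.11, adjusted p = 0.0190). Unlike Cdh5, it was no lower in hippocampus tumors 5 to 7, at 7.20, 7.09 and 7.25. The named lower genes were Sfrp1, Wipf3, Lncpint, Mir138-2, Neurod2, Btnl5-ps, Iqsec2, Cmya5, Mir540 and Plekha4. Cmya5, a muscle-associated anchoring protein, had 6.49 to 6.92 in hippocampus tumors and 7.52, 7.29, 7.09 and 7.30 in cortex tumors, without overlap (-0.57 ± 0.11, adjusted p = 0.00756). Of the 31, 13 were called with each of the 11 arrays left out in turn. In the second comparison all 31 lost their call without cortex tumor 2 and 16 without hippocampus tumor 1.

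**Figure D5:**
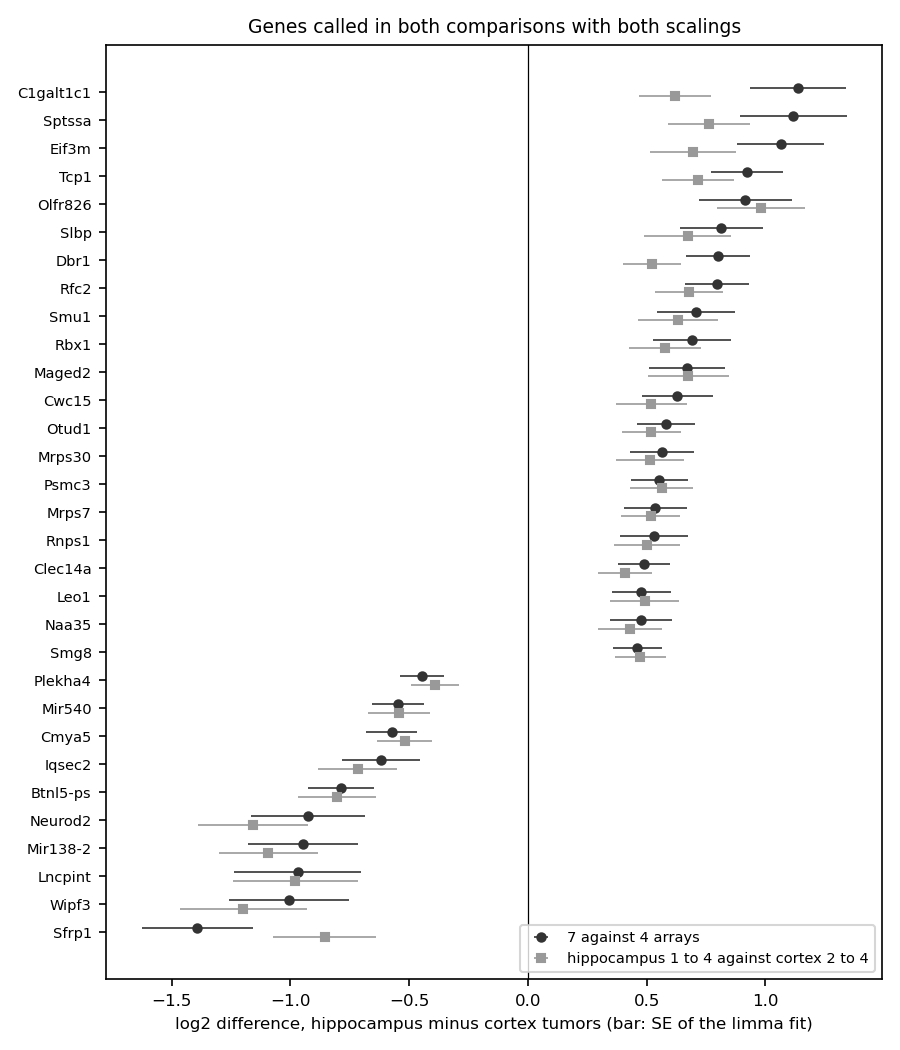
Log2 difference of hippocampus minus cortex tumors (horizontal axis, bars are SEs of the limma fit) for the 31 named genes called in both comparisons and with both scalings; circles are 7 against 4 arrays and squares hippocampus tumors 1 to 4 against cortex tumors 2 to 4. The 21 higher genes lie between 0.41 and 1.14 and the 10 lower genes between -1.39 and -0.39.

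Few genes of other cell type lists passed the test. Of all genes, 2.68% were called with all arrays and 10.5% in the second comparison. Of 19 microglia and macrophage genes, 12 T and NK cell genes, 9 B cell and neutrophil genes and 2 red blood cell genes, 0 were called in either comparison, with median log2 differences from -0.13 to 0.19 with all arrays. Oligodendrocyte and myelin genes (11), oligodendrocyte precursor genes (15) and ependymal and choroid plexus genes (12) also gave 0 calls. Some of these lists had larger medians that turned in sign between the comparisons: 0.50 with all arrays and -0.19 in the second for oligodendrocyte and myelin genes, 0.46 and -0.48 for astrocyte genes, and -0.36 and 0.20 for mural cell and fibroblast genes. Of 16 astrocyte genes 1 was called, Gja1, the gap junction protein connexin 43, which was higher with all arrays at 11.22 to 11.99 against 10.91 to 11.16 (0.58 ± 0.16, adjusted p = 0.0436). It did not pass after quantile normalization (adjusted p = 0.487). Interferon and antigen presentation genes (23), acute phase genes (14), Hox genes (16) and medial patterning genes (13) gave 0 calls. A value that did not pass does not show that the regions were alike.

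Single genes of other lists passed in the second comparison, where 8.49% of all genes were called higher and 2.0% lower. Counts of 1 or 2 genes beside those shares are not a result about the lists. Dusp4 and Dusp6, phosphatases that are induced by and act on ERK, were higher by 1.09 ± 0.34 and 0.98 ± 0.31 (adjusted p = 0.0449 and 0.0464), the 2 of 18 RAS and MAPK response genes called. Emp3, a membrane protein of mesenchymal glioma, was higher by 1.21 ± 0.37, the 1 of 23 of its list. Among neural stem genes, the BMP target Id1 was higher by 0.74 ± 0.23, while Nr2e1, the orphan receptor TLX of neural stem cells, was lower (-0.94 ± 0.26). Lhx8, a homeobox factor of ventral forebrain neurons, was higher by 1.41 ± 0.45 and varied widely, with 10.99, 8.17, 10.24 and 9.22 in hippocampus tumors 1 to 4 and 7.99, 8.51 and 8.22 in cortex tumors 2 to 4. Of p53 targets Perp was higher, and of immediate early genes Nr4a2 was lower. Of these 8 genes, Nr2e1 alone also passed after quantile normalization (adjusted p = 0.0441).

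Of the promoter and candidate vector genes, Gfap, Nes, Syn1, Nf1 and Rb1 did not pass in either comparison. Nes, the progenitor filament nestin, had 8.97 to 11.75 (median 11.12) in hippocampus tumors and 10.83, 9.75, 10.79 and 11.37 in cortex tumors, against 6.78 to 7.68 in the normal tissues. Nf1, a RAS inactivator, had 9.71 to 11.04 and 9.52 to 10.70 in hippocampus and cortex tumors. Cdkn2a, the locus of p16 and p19ARF, had 9.90, 9.77, 10.19 and 9.77 in hippocampus tumors 1 to 4 and 8.33, 8.67 and 9.71 in cortex tumors 2 to 4 (1.01 ± 0.29, adjusted p = 0.0348), against 6.99 to 7.44 in normal tissue. The groups did not overlap, and the gene did not pass after quantile normalization (adjusted p = 0.0615).

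Sex-linked genes varied from tumor to tumor. Of the 4 measured, 0 were called with all arrays (Xist, adjusted p = 0.109), beside 2.68% of all genes. Xist alone was called in the second comparison, beside 10.5% of all genes. Xist, the RNA that silences 1 X chromosome in females, had 11.46, 11.41, 5.77, 11.45, 5.95, 10.74 and 6.14 in hippocampus tumors 1 to 7, and 6.11, 5.56, 5.31 and 5.40 in cortex tumors 1 to 4 (second comparison, 4.60 ± 1.30, adjusted p = 0.0320). The Y-linked translation factor Eif2s3y was high where Xist was low, at 9.80, 8.30 and 8.85 in hippocampus tumors 3, 5 and 7 and 8.69 to 9.57 in all cortex tumors, and 4.70 to 5.50 in hippocampus tumors 1, 2, 4 and 6. The 4 cortex tumors therefore had a male pattern, and the hippocampus tumors were 4 with a female and 3 with a male pattern. Of 739 genes of the X chromosome, 29 (3.92%) were higher in hippocampus tumors, against 2.24% of all genes. The part of sex in the other differences was not tested.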

How the data were processed

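Gene expression in 30 mouse samples was profiled with Affymetrix Mouse Gene ST arrays after Trizol extraction of RNA, per the labels' protocols. The log2 signals were used as deposited by the authors; Affymetrix Power Tools, MAS5 and RMA appear in the submitters' processing notes, without saying which made these values. Of 35556 probe sets, 21789 had 1 gene symbol and were used (1621 had several, 12146 none), 21698 matching RefSeq GRCm38.p6; the probe set with the highest mean stood for a gene, leaving 19938 genes. limma 3.58.1 in R 4.3.3 fitted the means of all 7 groups (30 arrays, 23 residual degrees of freedom), and again without hippocampus tumors 5 to 7 and cortex tumor 1 (26 arrays). A gene was called at a Benjamini-Hochberg adjusted p under 0.05 over all genes of a contrast, with no filter on low values; every adjusted p in the text is from limma. The interaction was the region difference in tumors minus that in normal tissue. Precision is limited by the number of arrays. The fit was tested on simulated data.

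Named were the 12 largest differences called in each direction of each comparison, without predicted genes, the listed genes as examples and the promoter and candidate vector genes; others are said to be chosen after their values were seen. Members and the 31 lists (497 genes, 458 measured) were chosen with earlier results of these data known. Tumors of equal number correlated in their deviations from the group means, at 0.306, 0.281, 0.277 and 0.297 for pairs 1 to 4 with all arrays. With hippocampus tumors 5 to 7 left out the values were 0.522, 0.469, 0.183 and 0.05. The best match among cortex tumors had the same number for pairs 1 and 4 with all arrays, but not for pairs 2 and 3. With those tumors left out it did for pairs 1 and 2, but not for pairs 3 and 4. The labels do not say what a number marks. Alternatives covered scaling, low values, probe sets, arrays in the fit, weights, thresholds, replicate blocks and single arrays.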

Additional observations from a re-analysis of the deposited data

Results flagged for a closer look

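In 8 of 166 groups of samples tested, 1 array lay far from the nearest of the others, where chance gives about 1 in 20. Hippocampus tumor 5 had an Esm1 signal of 8.17 against 9.99 in the nearest hippocampus tumor. Hippocampus tumor 3 had 7.93 for Mir138-2 (nearest 7.21) and 10.21 for Naa35, an acetyltransferase subunit (nearest 9.87). Cortex tumor 1 had 10.85 for Tmsb10 (nearest 10.16), 8.22 for Smu1 (nearest 8.85) and an interquartile range over genes of 1.88 (nearest 2.74). Cortex tumor 4 had 7.46 for Dbr1 (nearest 7.08), and cortex tumor 2 had 8.32 for Mir540 (nearest 7.96).

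The region difference in tumors differed from that in normal tissue for 167 genes with 30 arrays and 537 with 26 arrays in limma's interaction test. With 30 arrays, tumor minus normal region differences were 1.92 for Tmsb10 (adjusted p = 0.0365), -2.24 for Wipf3 (adjusted p = 0.00177), -1.01 for Btnl5-ps (adjusted p = 0.0113), 0.85 for Dbr1 (adjusted p = 0.0372), 1.16 for Otud1 (adjusted p = 0.000782), 0.89 for Rfc2 (adjusted p = 0.0233) and 1.1 for Slbp (adjusted p = 0.0384). With 26 arrays they were -3.25 for Ddn (adjusted p = 0.0265), -2.93 for Gabra5 (adjusted p = 0.0359) and -3.21 for Cpne6 (adjusted p = 0.00808).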

How the results depend on the processing

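With all 11 arrays, the 534 calls became 928 with each array centred on its median (881 higher, 47 lower), 141 after quantile normalization, 1075 with array weights, 50 at an adjusted p under 0.01 and 68 with a change of at least 2-fold. limma called 0 in a fit to the 2 groups alone (1603 at an unadjusted p under 0.05, lowest adjusted p = 0.422) and 0 with the replicate block (4164 at an unadjusted p under 0.05). The block with the spread pooled over all groups, added after seeing the data, called 2416. Leaving out single arrays gave 205 to 1421: 883 without hippocampus tumor 5, 286 without 6, 220 without 7, 1421 without cortex tumor 1, 252 without 2 and 205 without 3. Hippocampus tumors 1 to 4 against all cortex tumors gave 1924 (1783 higher), tumors 5 to 7 against all 4965 (1561 higher, 3404 lower), and tumors 5 to 7 against cortex tumors 2 to 4 7562 (2249 higher, 5313 lower). In the second comparison, the 2090 calls became 769 after quantile normalization, 1087 without the 30% of genes with the lowest mean, 3 at an adjusted p under 0.01, 260 with a change of at least 2-fold and 0 in a fit to the 2 groups alone (4698 at an unadjusted p under 0.05). The replicate block gave 0 (4715 at an unadjusted p under 0.05) and, with the spread pooled, 475; its pairs 2 to 4 correlated at 0.411, -0.234 and 0.305. Leaving out single arrays gave 9 to 3119: 391 without hippocampus tumor 1, 9 without cortex tumor 2 and 681 without 3. After quantile normalization the sign turned for Rps6 with all arrays (-0.0837), and for Rps2 (-0.0175) and Cox6c (-0.0309) in the second comparison. Of the 24 genes named by size, 18 lost their call under quantile normalization with all arrays and 7 in the second comparison. The total interaction and normal tissue counts stayed within 1.5 times under the scalings run, but their directions did not: with 26 arrays 347 positive and 190 negative became 178 and 291 after quantile normalization, and with 30 arrays 68 positive became 112 when centred. The cause of these changes was not tested beyond what each alternative's construction shows, such as fewer arrays.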

Other observations

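Of the genes named by size with all arrays, Thbs4, a matrix glycoprotein of the thrombospondin family, had 7.16 to 9.26 (median 7.75) in hippocampus tumors and 9.59, 8.92, 9.84 and 8.04 in cortex tumors 1 to 4. It was lower in both comparisons (-1.21, adjusted p = 0.0412 with all arrays; -1.22, adjusted p = 0.0279 in the second). Lgals7, a galectin of epithelia, had 6.27 to 6.93 (median 6.59) in hippocampus tumors and 9.81, 7.72, 6.57 and 7.84 in cortex tumors (-1.43, adjusted p = 0.0455). Cortex tumor 1 was the highest for Lgals7, and cortex tumor 3 lay within the hippocampus range.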
